A study of Mus musculus with 12 samples.

Results

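The genes described here encode phase II conjugation enzymes: glutathione S-transferases (GST), UDP-glucuronosyltransferases (UGT) and cytosolic sulfotransferases (SULT). Members were all genes whose symbol belongs to the Gsta, Gstk, Gstm, Gsto, Gstp or Gstt classes, to Ugt1a, Ugt1b, Ugt2a or Ugt2b, or to Sult1 to Sult6, and that had at least 1 array feature with a ratio on all 12 arrays. The rule used no difference between groups. It found 40 of the 16549 genes measured, with 20 GST, 10 SULT and 10 UGT genes. Another 6 of the 46 matching symbols, Sult1d1, Sult2a2, Sult2a4, Sult3a1, Sult3a2 and Ugt1a9, had no such feature and were left out of the tests.

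Phase II enzymes attach a polar group to drugs, hormones, bile pigments and reactive lipids, which makes them easier to excrete. GSTs join glutathione to electrophiles, UGTs transfer glucuronic acid from UDP-glucuronic acid inside the endoplasmic reticulum, and SULTs transfer sulfate from the activated sulfate donor PAPS in the cytosol. Hepatocytes are a main site of all 3 reactions, and the enzymes of each family share many substrates.

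The study measured RNA from mouse liver cell lines. Hepa 1-6 is a mouse hepatoma line, and AML12 is a non-tumour hepatocyte line from mice carrying a human TGF-alpha transgene, although the labels call both hepatoma cells. Each line gave 3 groups: 10 µg/mL actinomycin D for 8 h, 200 ng/mL ovine pituitary prolactin for 8 h, and serum-free control. Each of the 6 groups had 2 arrays, described in the series design as biological replicates. All groups, controls included, had serum and additives withdrawn overnight, and only AML12 had been maintained with dexamethasone and insulin, so line and earlier medium cannot be told apart. Actinomycin D binds DNA and blocks RNA synthesis, and prolactin is a pituitary hormone that signals through a cytokine receptor.

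Values are log2 ratios of the sample (Cy5) over Universal Mouse Reference RNA, a pool from 11 cell lines (Cy3), with no dye swap. A ratio of 0 means the same signal as the reference RNA, so a ratio compares samples for 1 gene and cannot rank genes by level. Each array was normalized on its own: a change is relative to the other transcripts on the array, and amounts per cell were not measured. Per array, 37397 to 40281 of 45018 features had a ratio, and replicate arrays correlated at 0.975 to 0.985 across genes. Of 12 hepatocyte markers measured, 8 were above the reference RNA in Hepa 1-6 controls and 10 in AML12 controls. The median over those markers was 1.95 in Hepa 1-6 controls and 3.79 in AML12 controls. Albumin was at 4.30 in Hepa 1-6 controls and 4.24 in AML12 controls. Of 7 fibroblast or stellate markers, 1 (decorin, at 4.29) was above the reference RNA in Hepa 1-6 controls and 0 in AML12 controls. None of 4 leukocyte markers was above it in either control group. Of 5 biliary or progenitor markers, 2 were above it in Hepa 1-6 controls and 4 in AML12 controls. Krt19, a biliary keratin, was at -4.15 in Hepa 1-6 controls and 4.07 in AML12 controls, and Epcam, an epithelial adhesion molecule, at -2.48 in Hepa 1-6 controls and -4.83 in AML12 controls. In such bulk samples, fewer cells of a type and less RNA per cell cannot be told apart, and the part of these markers in the line differences was not tested.

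The promoters of 7 members are shown: 3 GST genes with the largest line differences among the GSTs, and 4 Ugt2b genes with divided responses to actinomycin D. RefSeq windows from 250 bases before to 50 bases after the annotated start were found for 36 of the 40 members (46 windows). Searched on both strands were TGACNNNGC (the core of the antioxidant response element, bound by NRF2), GTTAAT (a half-site of the hepatocyte factor HNF1) and AGGTCA (a half-site of nuclear receptors). These motifs were picked after a wider look at the same windows. Capitals mark every match in the printed sequences, and no printed matches overlap. Of 32851 promoters of the same length, 12.4% held TGACNNNGC, 7.1% held GTTAAT and 16.3% held AGGTCA. Of the 46 members' windows, 6.52% held the first, 8.7% the next and 19.6% the last.

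The 3 alpha class GST genes with the largest line differences of that class are shown first. On GRCm38.p6 the windows lie at chr9:78230419-78230718 on the plus strand for Gsta1, chr9:78347096-78347395 on the minus strand for Gsta2 and chr1:21240335-21240634 on the plus strand for Gsta3, each read 5′ to 3′ on the strand of its gene.
Gsta1: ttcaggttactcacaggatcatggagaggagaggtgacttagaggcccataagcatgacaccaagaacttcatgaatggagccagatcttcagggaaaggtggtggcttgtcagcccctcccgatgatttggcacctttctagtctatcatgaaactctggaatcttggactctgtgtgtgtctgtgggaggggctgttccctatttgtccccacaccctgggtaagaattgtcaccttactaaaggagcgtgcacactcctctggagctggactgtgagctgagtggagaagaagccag
Gsta2: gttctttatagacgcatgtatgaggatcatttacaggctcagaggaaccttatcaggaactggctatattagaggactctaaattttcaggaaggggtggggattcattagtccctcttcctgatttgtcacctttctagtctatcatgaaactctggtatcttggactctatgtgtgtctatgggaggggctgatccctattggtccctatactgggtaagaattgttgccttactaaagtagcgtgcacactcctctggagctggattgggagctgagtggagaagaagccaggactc
Gsta3: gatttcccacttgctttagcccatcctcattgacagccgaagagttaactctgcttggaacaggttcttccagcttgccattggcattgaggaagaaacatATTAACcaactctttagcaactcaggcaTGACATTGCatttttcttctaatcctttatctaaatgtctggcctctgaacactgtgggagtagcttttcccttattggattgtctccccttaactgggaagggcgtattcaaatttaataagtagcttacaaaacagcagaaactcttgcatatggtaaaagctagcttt
In global alignment, the Gsta1 and Gsta2 windows shared 79.3% of the 300 bases, and each shared 61.7% with Gsta3. The Gsta3 window held 1 TGACNNNGC beginning 121 bases before the start and 1 GTTAAT, read on the other strand, beginning 149 bases before it. None of the 3 motifs was found in the Gsta1 and Gsta2 windows, which says only that these letters are not in these 300 bases.

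The 4 Ugt2b genes come from 1 cluster on chromosome 5 and were divided in their response to actinomycin D. Their windows lie on the minus strand of GRCm38.p6 at chr5:87140291-87140590 for Ugt2b5, chr5:87254739-87255038 for Ugt2b37, chr5:87424154-87424453 for Ugt2b38 and chr5:86926454-86926753 for Ugt2b1.
Ugt2b5: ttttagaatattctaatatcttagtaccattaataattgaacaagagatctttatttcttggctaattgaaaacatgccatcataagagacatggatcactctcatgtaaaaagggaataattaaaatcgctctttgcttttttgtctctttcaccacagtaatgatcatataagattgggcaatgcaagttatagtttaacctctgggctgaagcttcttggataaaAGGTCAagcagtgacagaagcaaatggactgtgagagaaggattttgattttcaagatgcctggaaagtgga
Ugt2b37: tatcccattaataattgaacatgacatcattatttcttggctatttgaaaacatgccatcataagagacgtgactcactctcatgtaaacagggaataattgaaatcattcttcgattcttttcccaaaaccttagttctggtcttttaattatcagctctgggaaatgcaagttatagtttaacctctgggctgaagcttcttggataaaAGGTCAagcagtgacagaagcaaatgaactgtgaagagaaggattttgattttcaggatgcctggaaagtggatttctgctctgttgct
Ugt2b38: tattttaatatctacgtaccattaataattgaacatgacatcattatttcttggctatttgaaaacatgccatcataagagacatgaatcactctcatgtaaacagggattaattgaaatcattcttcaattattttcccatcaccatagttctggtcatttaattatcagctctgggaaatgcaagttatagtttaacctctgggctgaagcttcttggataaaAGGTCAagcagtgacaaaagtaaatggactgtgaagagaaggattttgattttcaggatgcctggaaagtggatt
Ugt2b1: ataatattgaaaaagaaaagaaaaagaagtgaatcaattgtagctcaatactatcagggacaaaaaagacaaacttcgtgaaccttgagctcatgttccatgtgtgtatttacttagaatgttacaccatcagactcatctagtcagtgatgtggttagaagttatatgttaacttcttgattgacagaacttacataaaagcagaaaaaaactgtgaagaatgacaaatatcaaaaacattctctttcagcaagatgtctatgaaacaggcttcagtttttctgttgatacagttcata
Ugt2b5, Ugt2b37 and Ugt2b38 shared 82.7% to 91.3% of bases with each other, and an identical run of 62 bases that holds AGGTCA. This match began 22, 39 and 25 bases before their starts. Ugt2b1 shared 61.3% to 62% with each of them, and its window held none of the 3 motifs. For scale, the 12 pairs of a Gsta with a Ugt2b window shared 56.7% to 62.3%.

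Without treatment, most conjugation genes that differed between the lines were lower in Hepa 1-6. In Hepa 1-6 controls against AML12 controls, 24 of 40 members were lower and 4 were higher past the threshold, an adjusted p of 0.05 from limma over all 16549 genes. By the same rule 61.9% of all genes were called, 29.8% lower and 32.1% higher, and the members' shares were 60% lower and 10% higher. The median difference was -0.84 over the members and 0.04 over all genes. Of the 20 GST genes, 13 were lower and 2 higher, with a median of -0.65. Of the 10 SULT genes, 5 were lower and 1 higher, with a median of -0.67. Of the 10 UGT genes, 6 were lower and 1 higher, with a median of -1.58. Arrays of the lines did not overlap for 82.5% of the members and 81% of all genes.

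**Figure D1:**
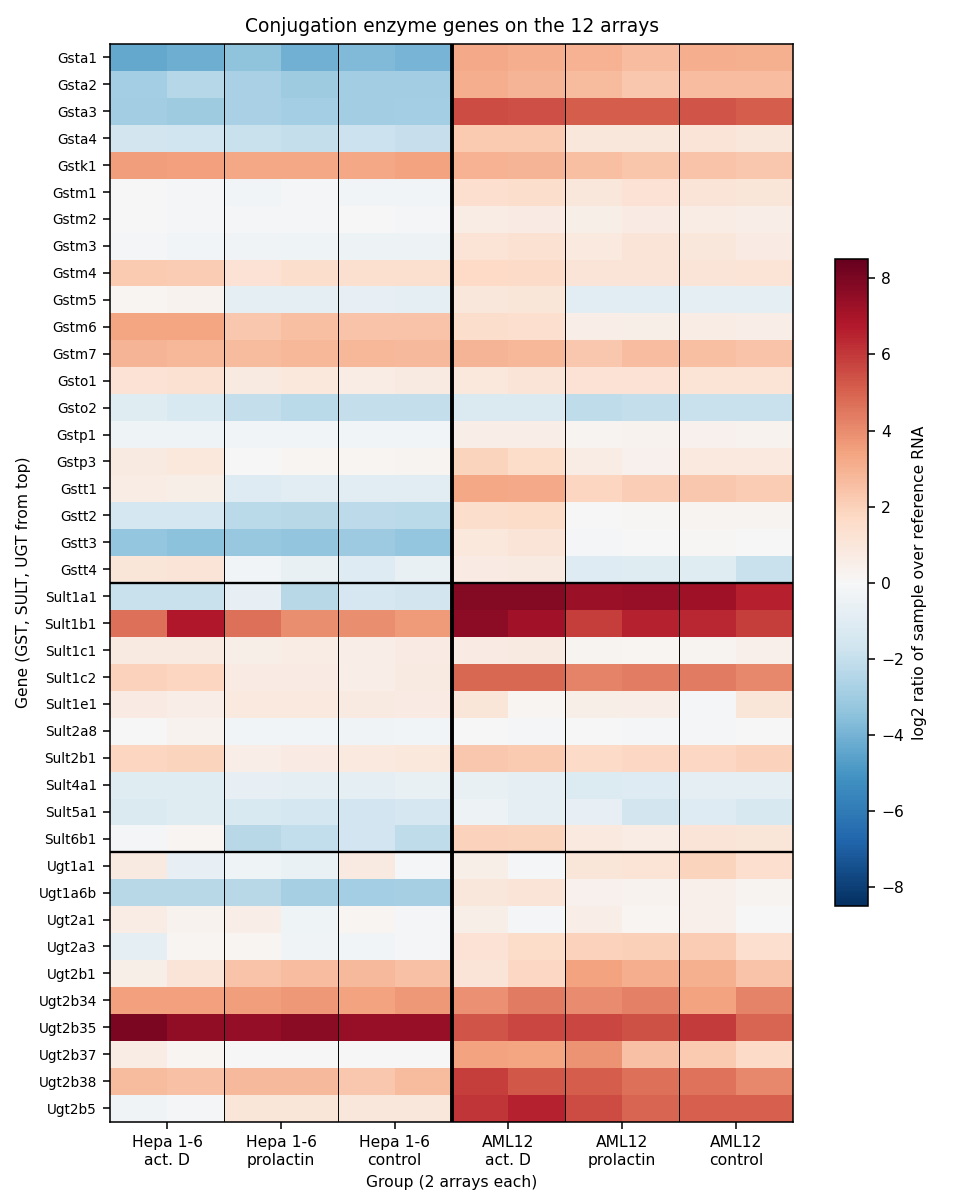
Log2 ratios over reference RNA (colour) of the 40 members on the 12 arrays, Hepa 1-6 left and AML12 right of the thick line, and GST, SULT and UGT genes from top to bottom. Sult1a1 lies between 6.61 and 7.77 on the AML12 arrays and between -2.35 and -0.70 on the Hepa 1-6 arrays.

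The alpha class GSTs, which act on lipid peroxides and many drugs and are abundant in rodent liver, differed most among the GSTs. Gsta3, with 2 features, was at -2.97 and -2.91 in Hepa 1-6 controls, against 5.35 and 5.17 in AML12 controls. Gsta1 was at -3.75 and -3.92 in Hepa 1-6 controls, against 3.09 and 3.05 in AML12 controls. Gsta2 was at -2.93 and -2.94 in Hepa 1-6 controls, against 2.63 and 2.65 in AML12 controls. All 3 were below the reference RNA on every Hepa 1-6 array of any treatment and above it on every AML12 array. The differences were -8.20 ± 0.08 for Gsta3 (SE, n = 2 per group, adjusted p = 4.4e-10), -6.91 ± 0.21 for Gsta1 and -5.57 ± 0.18 for Gsta2, or 293-fold, 120-fold and 47.6-fold lower in Hepa 1-6. No marks for background were used, so ratios this far below the reference may lie at the detection limit and these folds are uncertain in size. The 2 features of Gsta3 gave -9.87 and -6.53. Gsta1 and Gsta2 are close paralogs, and probes of this class may bind each other's RNA.

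Gsta4, whose product clears the lipid aldehyde 4-hydroxynonenal, has 10 features that agreed closely. Probe sequences were not used, so these may be repeats of 1 probe and not independent readings. Gsta4 was at -1.85 and -1.95 in Hepa 1-6 controls, against 1.07 and 0.98 in AML12 controls, a difference of -2.93 ± 0.08 (adjusted p = 1.81e-08). The theta class, which handles small halogenated compounds, lies in 1 cluster on chromosome 10. Gstt3 was at -3.09 and -3.27 in Hepa 1-6 controls, against 0.11 and 0.01 in AML12 controls, a difference of -3.24 ± 0.10. Gstt1 and Gstt2 were lower in Hepa 1-6 by similar amounts, -3.15 ± 0.10 and -2.47 ± 0.06. Gstt4, at -1.08 and -0.63 in Hepa 1-6 controls and -1.05 and -1.89 in AML12 controls, overlapped between the lines and did not pass (difference 0.62 ± 0.26, adjusted p = 0.0759). Its other feature, left out of the test, was at -1.11 and -0.76 in Hepa 1-6 controls. That feature was at -0.02 in AML12 control 1 and had no ratio in control 2, so the direction for Gstt4 is uncertain.

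The mu class, in 1 cluster on chromosome 3, was divided. Gstm6 was at 2.45 and 2.44 in Hepa 1-6 controls, against 0.65 and 0.58 in AML12 controls, and was higher in Hepa 1-6 by 1.83 ± 0.08 (adjusted p = 4e-07). Gstm1, Gstm2 and Gstm3 were lower in Hepa 1-6, with differences of -1.29, -0.67 and -1.30, while Gstm4, Gstm5 and Gstm7 did not pass (0.06 to 0.28). Mu class transcripts are also near-identical in places, so neighbours in this class may share signal. Gstk1, a GST of mitochondria and peroxisomes, was at 3.26 and 3.39 in Hepa 1-6 controls, against 2.45 and 2.31 in AML12 controls, and was higher by 0.95 ± 0.08. Gstp1 and Gstp3 of the pi class, and Gsto1, which reduces dehydroascorbate and arsenic compounds, were lower in Hepa 1-6 by small amounts (-0.62 to -0.43). The features of Gsto2 disagreed in sign, at -0.70 and 0.49, and the gene did not pass.

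Among the SULT genes, Sult1a1, the main phenol sulfotransferase, showed the largest difference of all 40 members. It was at -1.41 and -1.58 in Hepa 1-6 controls, against 7.18 and 6.61 in AML12 controls. The difference was -8.39 ± 0.44 (adjusted p = 9.23e-07), 335-fold lower in Hepa 1-6. Sult1c2, a relative of the same subfamily, was at 0.54 and 0.76 in Hepa 1-6 controls, against 4.38 and 4.09 in AML12 controls (difference -3.58 ± 0.11). Sult6b1, whose substrates are little known, was at -1.64 and -2.18 in Hepa 1-6 controls, against 1.08 and 1.00 in AML12 controls (difference -2.95 ± 0.18). Sult1b1, which sulfates thyroid hormones, was at 3.92 and 3.62 in Hepa 1-6 controls, against 6.41 and 5.85 in AML12 controls (difference -2.36 ± 0.63, adjusted p = 0.0113). Thus a gene could be lower in Hepa 1-6 and still far above the reference RNA. Sult2b1, which sulfates cholesterol and other hydroxysteroids, was also lower (difference -1.005 ± 0.09). Sult1c1 was higher in Hepa 1-6, at 0.55 and 0.69 against 0.22 and 0.44 in AML12 controls (difference 0.30 ± 0.09, adjusted p = 0.0191). Sult1e1, the estrogen sulfotransferase, Sult2a8, a bile acid sulfotransferase of mouse liver, Sult4a1 and Sult5a1 did not pass.

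Among the UGT genes, the Ugt2b cluster, whose products glucuronidate steroids and other lipophilic compounds, was divided between the lines. Ugt2b5 was at 0.98 and 0.99 in Hepa 1-6 controls, against 5.08 and 5.05 in AML12 controls, a difference of -4.08 ± 0.20 (adjusted p = 5.85e-07, 16.9-fold lower). Ugt2b35 ran the other way, at 7.41 and 7.37 in Hepa 1-6 controls against 5.91 and 4.92 in AML12 controls, a difference of 1.98 ± 0.31. Ugt2b37 was at -0.02 and 0.05 in Hepa 1-6 controls, against 2.25 and 1.60 in AML12 controls (difference -1.91 ± 0.40). Ugt2b5, Ugt2b37 and Ugt2b38, the genes with alike promoter windows, were each lower in Hepa 1-6, Ugt2b38 with a difference of -1.84 ± 0.27. Whether the windows bear on this was not tested. Ugt2b1 and Ugt2b34 overlapped between the lines and did not pass.

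The Ugt1a genes on chromosome 1 splice different first exons to a shared body, so a probe in the body would read all of them. Ugt1a6b, which acts on planar phenols, was at -2.87 and -2.79 in Hepa 1-6 controls, against 0.45 and 0.22 in AML12 controls (difference -3.17 ± 0.14). Its 2 features agreed in sign but not in size, at -1.81 and -4.53. Ugt2a3 was at -0.26 and -0.15 in Hepa 1-6 controls, against 2.18 and 1.42 in AML12 controls (difference -2.002 ± 0.35). Ugt1a1, the bilirubin enzyme, was at 0.77 and -0.07 in Hepa 1-6 controls, against 1.90 and 1.44 in AML12 controls (difference -1.32 ± 0.47, adjusted p = 0.0384), the weakest of the UGT calls. Ugt1a1 lost its call without any 1 of 7 arrays (both controls of AML12, Hepa 1-6 control 2 and the 4 prolactin arrays, adjusted p up to 0.21), with a difference of -0.90 without Hepa 1-6 control 2. Sult1b1 lost its call without AML12 control 1 or Hepa 1-6 control 2 (-2.08 and -2.21), as did Sult1c1 (0.19 and 0.23).

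**Figure D2:**
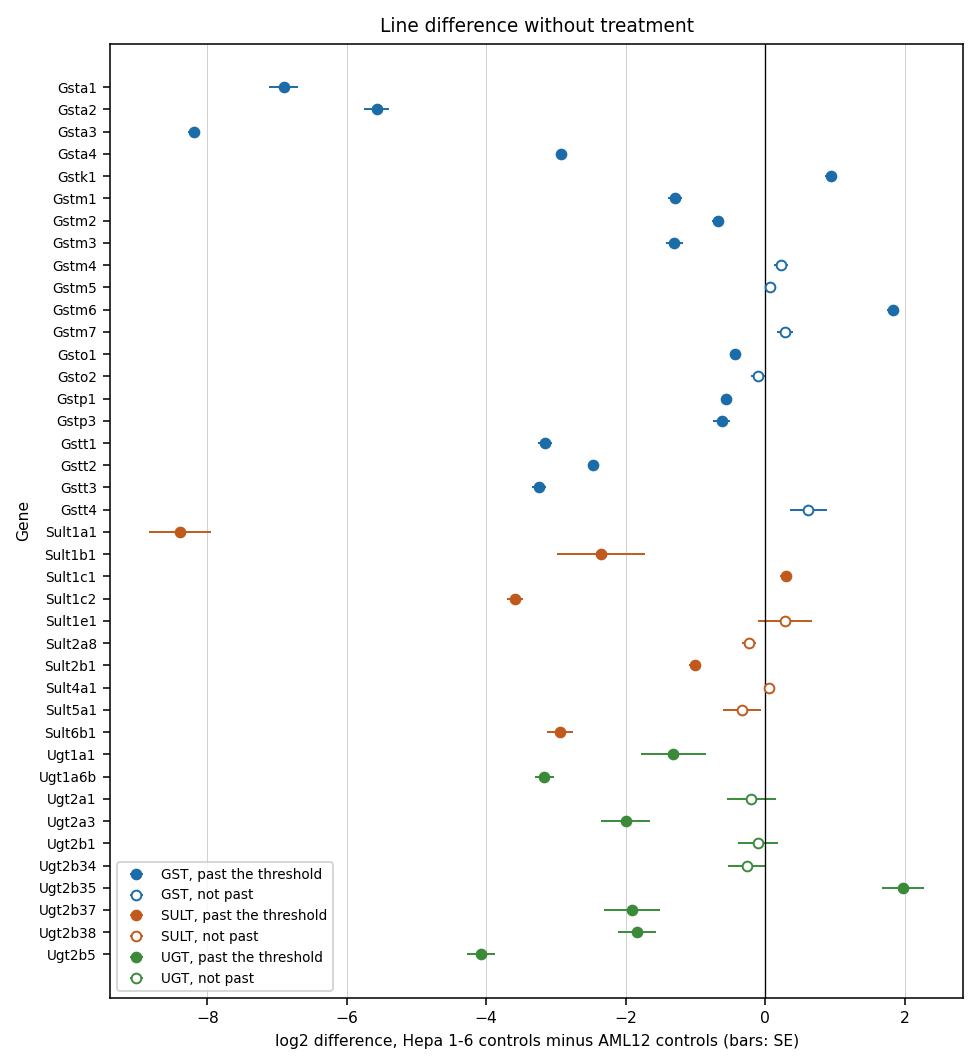
Log2 difference of Hepa 1-6 controls minus AML12 controls for each member (points, with SE from the model as bars), coloured by family and filled where the adjusted p is under 0.05. Sult1a1 at -8.39 and Gsta3 at -8.20 lie farthest to the left, and Ugt2b35 at 1.98 and Gstm6 at 1.83 farthest to the right.

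Actinomycin D was set against control within each line. In Hepa 1-6, 16 members rose and 3 fell, which is 40% and 7.5% of the members. By the same rule 50.9% of all genes were called there, 27.9% higher and 23% lower. In AML12, 24 members rose and 2 fell, 60% and 5% of the members, where 53.6% of all genes were called, 28% higher and 25.5% lower. The median change over the members was 0.26 in Hepa 1-6 and 0.46 in AML12, where the medians over all genes were 0.07 and 0.04. A change here is in the share of the remaining RNA. Both lines shared 13 of the rises: Gsta4, Gstm4, Gstm5, Gstm6, Gsto2, Gstp3, Gstt1, Gstt2, Gstt4, Sult1c2, Sult2b1, Sult6b1 and Ugt1a6b. The share of all genes that rose in both lines was not counted, so this number has no baseline. Ugt2b1 fell in both lines, and Ugt2b5 fell in Hepa 1-6 and rose in AML12. Treated and control arrays did not overlap for 80% of the members in Hepa 1-6 (76% of all genes) and 82.5% in AML12 (77.1% of all genes). The median over the hepatocyte markers was 2.22 with actinomycin D in Hepa 1-6 against 1.95 in its controls, and 3.06 in AML12 against 3.79 in its controls.

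**Figure D3:**
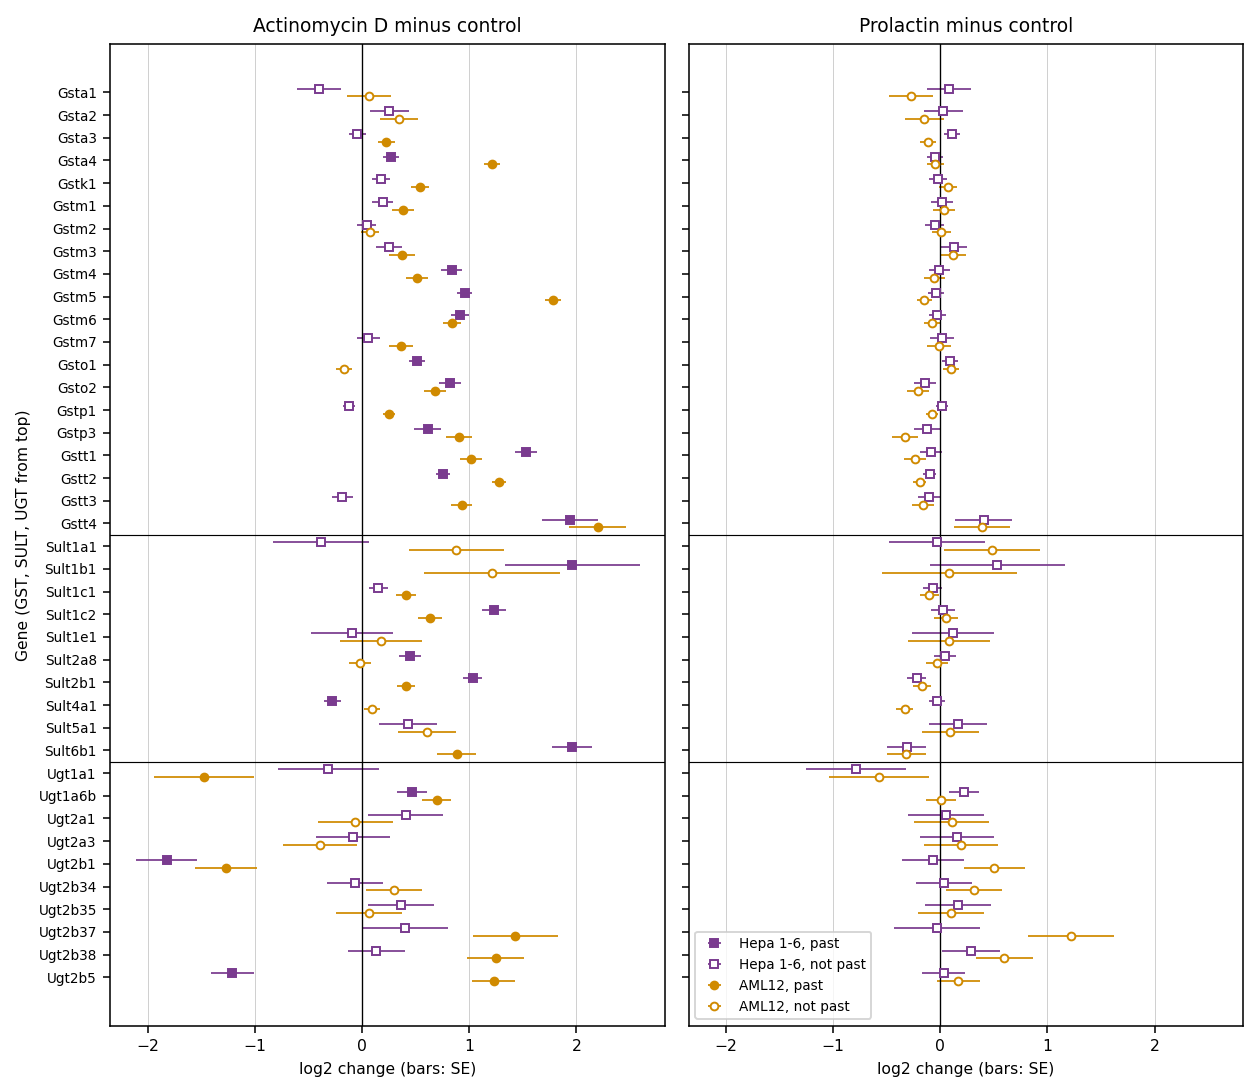
Log2 change from control for each member with actinomycin D (left) and prolactin (right), squares for Hepa 1-6 and circles for AML12, with SE from the model as bars and filled symbols where the adjusted p is under 0.05. With actinomycin D most filled symbols lie right of 0 and Ugt2b1 lies left in both lines at -1.83 and -1.27, and with prolactin no symbol is filled.

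No GST gene fell in either line, while 10 of 20 rose in Hepa 1-6 (50%, median 0.26) and 16 of 20 in AML12 (80%, median 0.52). Of all genes, 27.9% rose and 23% fell in Hepa 1-6, and 28% rose and 25.5% fell in AML12. Gstt4 rose most of the GSTs in both lines. It was at 1.06 and 1.12 with actinomycin D in Hepa 1-6, against -1.08 and -0.63 in controls, a rise of 1.94 ± 0.26 (adjusted p = 0.000548). The AML12 values were 0.72 and 0.73 with actinomycin D, against -1.05 and -1.89 in controls, a rise of 2.20 ± 0.26 (adjusted p = 0.000236). Gstt4 was below the reference RNA on every control array and above it on every actinomycin D array of both lines, and its response did not differ between them past the threshold (-0.26 ± 0.37, adjusted p = 0.65).

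Gstt1 was at 0.64 and 0.51 with actinomycin D in Hepa 1-6, against -0.90 and -0.99 in controls (rise 1.52 ± 0.10, adjusted p = 1.75e-05). The AML12 values were 3.26 and 3.19 with actinomycin D, against 2.27 and 2.15 in controls (rise 1.02 ± 0.10). Gstt2 was at -1.48 and -1.47 with actinomycin D in Hepa 1-6, against -2.20 and -2.27 in controls (rise 0.75 ± 0.06), and at 1.46 and 1.56 in AML12, against 0.26 and 0.21 in controls (rise 1.28 ± 0.06). Their neighbour Gstt3 did not keep to this pattern. It was at -3.27 and -3.45 with actinomycin D in Hepa 1-6, against -3.09 and -3.27 in controls (-0.18 ± 0.10, adjusted p = 0.162), and at 0.92 and 1.07 in AML12, against 0.11 and 0.01 in controls (rise 0.93 ± 0.10). The Hepa 1-6 values of Gstt3 are low enough that they may lie at the detection limit.

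Gstm5, like Gstm4 and Gstm7 not past the threshold between the control groups, had the smallest adjusted p of the AML12 GST rises. It was at 0.15 and 0.30 with actinomycin D in Hepa 1-6, against -0.70 and -0.77 in controls (rise 0.96 ± 0.07). AML12 arrays were at 0.94 and 1.03 with actinomycin D, against -0.74 and -0.85 in controls (rise 1.78 ± 0.07, adjusted p = 9.78e-07). Gstm6 was at 3.36 and 3.36 with actinomycin D in Hepa 1-6, against 2.45 and 2.44 in controls (rise 0.91 ± 0.08), and rose by 0.84 ± 0.08 in AML12. Gstm4 rose by 0.83 in Hepa 1-6 and 0.51 in AML12. Gstm1, Gstm3 and Gstm7 did not pass in Hepa 1-6 (0.06 to 0.25) and rose in AML12 by 0.37 to 0.38, and the test of the difference between lines did not pass for any of these 3 genes. The 2 features of Gstm1 gave -0.27 and 0.65 in Hepa 1-6 and 0.04 and 0.72 in AML12, so its AML12 rise was carried by 1 feature. Gstm2 did not pass in either line.

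Gsta4 was at -1.57 and -1.70 with actinomycin D in Hepa 1-6, against -1.85 and -1.95 in controls (rise 0.27 ± 0.08, adjusted p = 0.0183). In AML12 it was at 2.24 and 2.23, against 1.07 and 0.98 in controls (rise 1.21 ± 0.08, adjusted p = 6.96e-06). Among the other alpha class genes, Gsta1 and Gsta2 did not pass in either line, and Gsta3 passed in AML12 at 0.22 ± 0.08 (adjusted p = 0.0403) and turned to -0.37 (adjusted p = 0.00283) after quantile normalization. Gsto1 rose in Hepa 1-6 by 0.51 ± 0.08 and did not pass in AML12 (-0.17). Gsto2, Gstp3 and, in AML12, Gstk1 and Gstp1 rose by 0.25 to 0.90. The 2 features of Gstp1 gave 0.45 and 0.05 in AML12, so its rise was carried by 1 feature. In Hepa 1-6 they disagreed in sign (0.08 and -0.33).

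Among the SULT genes, 5 of 10 rose and 1 fell in Hepa 1-6 (50% and 10%, median 0.44). In AML12, 4 rose and 0 fell (40% rose, median 0.51). The all-gene shares were 27.9% higher and 23% lower in Hepa 1-6, and 28% and 25.5% in AML12. Sult6b1 was at -0.09 and 0.19 with actinomycin D in Hepa 1-6, against -1.64 and -2.18 in controls, a rise of 1.96 ± 0.18 (adjusted p = 7.92e-05). In AML12 it was at 1.98 and 1.87 with actinomycin D, against 1.08 and 1.00 in controls (rise 0.88 ± 0.18). Sult1c2 was at 1.94 and 1.82 with actinomycin D in Hepa 1-6, against 0.54 and 0.76 in controls (rise 1.23 ± 0.11), and at 4.85 and 4.88 in AML12, against 4.38 and 4.09 in controls (rise 0.63 ± 0.11). Both genes stayed lower on every treated Hepa 1-6 array than on any AML12 control array.

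Sult2b1 was at 1.84 and 1.92 with actinomycin D in Hepa 1-6, against 0.83 and 0.87 in controls (rise 1.03 ± 0.09), and at 2.32 and 2.21 in AML12, against 1.77 and 1.94 in controls (rise 0.41 ± 0.09). Sult1b1 was at 4.65 and 6.81 with actinomycin D in Hepa 1-6, against 3.92 and 3.62 in controls (rise 1.96 ± 0.63, adjusted p = 0.032), and its size rested on 1 array. Without that array, actinomycin D 2, the change was 0.88 (adjusted p = 0.131), and without actinomycin D 1 it was 3.04 (adjusted p = 0.00151). In AML12 Sult1b1 was at 7.57 and 7.11 with actinomycin D, against 6.41 and 5.85 in controls (1.21 ± 0.63, adjusted p = 0.142). Sult1c1 was at 0.72 and 0.75 with actinomycin D in AML12, against 0.22 and 0.44 in controls (rise 0.41 ± 0.09), and Sult2a8 rose in Hepa 1-6 by 0.45 ± 0.10. Sult4a1, a brain sulfotransferase with no established substrate, was at -1.0016 and -0.9999 with actinomycin D in Hepa 1-6, against -0.79 and -0.66 in controls (-0.28 ± 0.08, adjusted p = 0.0167), with features at -0.50 and -0.05, so the fall was carried by 1 feature. In AML12 its features disagreed in sign (-0.12 and 0.31). Sult1a1, Sult1e1 and Sult5a1 did not pass in either line.

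Of the 10 UGT genes, 1 rose and 2 fell in Hepa 1-6 (10% and 20%, median 0.03). In AML12, 4 rose and 2 fell (40% and 20%, median 0.18). The all-gene shares were 27.9% higher and 23% lower in Hepa 1-6, and 28% and 25.5% in AML12. The UGT falls were thus near the all-gene shares. After quantile normalization both UGT medians were below 0, at -0.24 and -0.08. Ugt2b1 was at 0.51 and 1.07 with actinomycin D in Hepa 1-6, against 2.74 and 2.49 in controls, and fell by 1.83 on the log2 scale (SE 0.29, adjusted p = 0.00117). In AML12 it was at 1.11 and 1.78 with actinomycin D, against 2.99 and 2.45 in controls, and fell by 1.27 (SE 0.29, adjusted p = 0.00646). Actinomycin D and control arrays of Ugt2b1 did not overlap in either line, and the lines' responses did not differ past the threshold (-0.55 ± 0.41, adjusted p = 0.352).

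Ugt2b5 was at -0.30 and -0.15 with actinomycin D in Hepa 1-6, against 0.98 and 0.99 in controls, and fell by 1.21 (SE 0.20, adjusted p = 0.00146). In AML12 it was at 6.05 and 6.54 with actinomycin D, against 5.08 and 5.05 in controls, and rose by 1.23 ± 0.20 (adjusted p = 0.00121). The same gene thus moved in opposite directions. Its relatives with alike promoter windows rose in AML12, and a link between the windows and the responses was not tested. Ugt2b37 was at 3.39 and 3.32 with actinomycin D there, against 2.25 and 1.60 in controls (rise 1.43 ± 0.40, adjusted p = 0.0167). Ugt2b38 was at 5.88 and 5.25 with actinomycin D there, against 4.58 and 4.05 in controls (rise 1.25 ± 0.27, adjusted p = 0.00513). In Hepa 1-6 neither passed (0.40 and 0.13). Ugt2b34 and Ugt2b35 did not pass in either line. Since Ugt2b transcripts are alike, a probe for 1 of them may also read its relatives.

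Ugt1a6b was at -2.38 and -2.36 with actinomycin D in Hepa 1-6, against -2.87 and -2.79 in controls (rise 0.46 ± 0.14), and at 0.98 and 1.08 in AML12, against 0.45 and 0.22 in controls (rise 0.70 ± 0.14). Ugt1a1 ran the other way in AML12, at 0.51 and -0.13 with actinomycin D against 1.90 and 1.44 in controls (-1.48 ± 0.47, adjusted p = 0.0281), and did not pass in Hepa 1-6 (-0.32). Ugt2a1 and Ugt2a3 did not pass in either line.

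Some calls were lost without 1 array. In AML12, the calls of Gstm1 and Gstm3 were lost without control 2 or actinomycin D 2, with Gstm3 at 0.24 without control 2. The call of Gstm7 was lost without any 1 of the 4 arrays compared. Ugt1a1 was lost without either control or actinomycin D 2 (-1.71 to -1.16), and Ugt2b37 without control 2 or either actinomycin D array (1.11 to 1.46). Gsta3 was lost without any 1 of 9 arrays, at 0.13 without control 2, and all 9 adjusted p values were between 0.0501 and 0.238. These arrays were every AML12 array but control 1, and the control and actinomycin D arrays of Hepa 1-6. In Hepa 1-6, Gsta4 was lost without control 2 or actinomycin D 1 (0.22 and 0.20), Sult4a1 without control 2 or either actinomycin D array (-0.28 to -0.21), and Ugt1a6b without any 1 of the 4 arrays compared. Sult1b1 was also lost without either Hepa 1-6 control (2.11 and 1.81).

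The difference between the lines in the response to actinomycin D was tested directly, as the Hepa 1-6 change minus the AML12 change. It passed for 13 of 40 members, 6 above 0 and 7 below, or 15% and 17.5% of the members. By the same rule 30% of all genes were called, 17.2% above 0 and 12.8% below. After median centring of the arrays the members' split was 5 above and 10 below. Each line's change uses its own controls, and the per-array values were given with the changes. Ugt2b5 differed most, at -2.44 ± 0.28 (adjusted p = 0.000719). Of the GST genes, Gstt3 (-1.11 ± 0.14, adjusted p = 0.00105), Gsta4 (-0.94 ± 0.11), Gstm5 (-0.82 ± 0.10), Gstt2 (-0.52 ± 0.09) and Gstp1 (-0.37 ± 0.08) had a lower change in Hepa 1-6 than in AML12. Gsto1 (0.68 ± 0.11) and Gstt1 (0.51 ± 0.15) had a higher change in Hepa 1-6.

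Of the 10 SULT genes, 4 passed above 0 and 1 below. Sult6b1 (1.08 ± 0.26, adjusted p = 0.0172), Sult2b1 (0.62 ± 0.12), Sult1c2 (0.60 ± 0.16) and Sult2a8 (0.47 ± 0.15) had a higher change in Hepa 1-6 than in AML12. Sult4a1 (-0.37 ± 0.11) passed below 0, with its fall in Hepa 1-6 set against a change of 0.09 in AML12 that did not pass. The theta class held both directions, with Gstt1 above 0, Gstt2 and Gstt3 below, and Gstt4 not past the threshold. Ugt2b38 and Ugt2b37, which rose in AML12, did not differ between the lines past the threshold (-1.11 ± 0.38 with adjusted p = 0.0608, and -1.03 ± 0.56 with adjusted p = 0.215). Leaving out 1 array ended 5 of the calls. Gstt1 was lost without any of 7 arrays (the 8 control and actinomycin D arrays but Hepa 1-6 actinomycin D 2), Sult4a1 without 6 (those 8 but AML12 actinomycin D 2 and Hepa 1-6 control 1) and Sult1c2 without 5 (AML12 control 1, both AML12 actinomycin D arrays, Hepa 1-6 control 1 and actinomycin D 1). Sult6b1 was lost without AML12 control 1, AML12 actinomycin D 2 or Hepa 1-6 actinomycin D 2 (adjusted p 0.0511 to 0.0561). Sult2a8 was lost without any of 10 arrays, all but AML12 actinomycin D 1 and Hepa 1-6 actinomycin D 1.

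**Figure D4:**
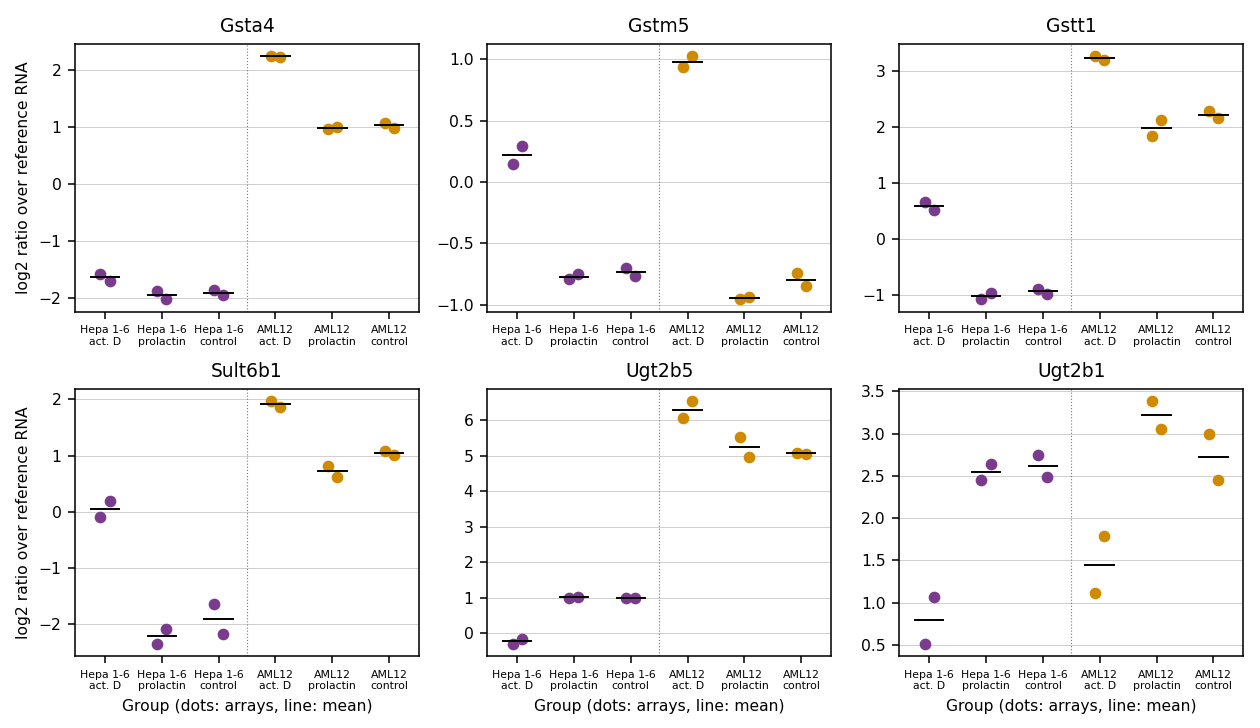
Log2 ratios over reference RNA of 6 members on each array (dots) with group means (lines), Hepa 1-6 left of the dotted line and AML12 right of it, each panel on its own axis. Ugt2b5 lies lower with actinomycin D than in controls in Hepa 1-6 and higher than in controls in AML12, and Ugt2b1 lies lower in both lines.

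Prolactin changed no member past the threshold in either line. In Hepa 1-6, 0 of 40 passed where 0.0363% of all genes did (0.0302% higher and 0.00604% lower), and 1 member, Sult2b1, had an unadjusted p under 0.05. In AML12, 0 of 40 passed where 1.27% of all genes did (0.719% higher and 0.55% lower), and 4 members, Sult4a1, Gstt2, Ugt2b37 and Gstp3, had an unadjusted p under 0.05. The members' changes ran from -0.79 to 0.53 in Hepa 1-6 and from -0.57 to 1.22 in AML12, with medians of 0.014 in Hepa 1-6 and -0.0024 in AML12. The difference between the lines passed for 0 members, where 0.121% of all genes passed (0.0544% above 0 and 0.0665% below). For it, 1 member, Sult4a1, had an unadjusted p under 0.05. Of all 16549 genes, 1359 had an unadjusted p under 0.05 in Hepa 1-6, 2796 in AML12 and 1810 for the difference between lines. Each of these is a larger share than among the members. The groups did not overlap for 32.5% of members in Hepa 1-6 (43.2% of all genes) and 45% in AML12 (48.8% of all genes).

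These tests bound most responses. The 95% interval of the prolactin change lay within a 2-fold change in both directions for 35 members in Hepa 1-6 and 33 in AML12. It reached further for Gstt4, Sult1a1, Sult1b1, Sult1e1 and Ugt1a1 in Hepa 1-6, and for Gstt4, Sult1a1, Sult1b1, Ugt1a1, Ugt2b1, Ugt2b37 and Ugt2b38 in AML12, so a 2-fold response of these genes was not excluded. Sult4a1 came nearest to the threshold, at -1.13 and -1.10 with prolactin in AML12 against -0.78 and -0.78 in controls (-0.33 ± 0.08, adjusted p = 0.0852), with features at -0.60 and -0.06. Ugt2b37 had the largest change, at 3.82 and 2.47 with prolactin in AML12 against 2.25 and 1.60 in controls (1.22 ± 0.40, adjusted p = 0.189, 95% interval 0.30 to 2.14). Its prolactin arrays lay far apart, and without prolactin 2 the change was 1.90 and passed (adjusted p = 0.0425). Another Ugt2b37 feature, with ratios on all 6 AML12 arrays and none on those of Hepa 1-6, differed by 0.10 with prolactin in AML12, so the features disagree in size.

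Gstt2 came nearest among the GSTs in both lines. It was at -2.31 and -2.36 with prolactin in Hepa 1-6 against -2.20 and -2.27 in controls (-0.10 ± 0.06, adjusted p = 0.746), and at -0.00034 and 0.09 in AML12 against 0.26 and 0.21 in controls (-0.19 ± 0.06, adjusted p = 0.187). Among the other families in Hepa 1-6, Sult2b1 was at 0.54 and 0.72 with prolactin against 0.83 and 0.87 in controls (-0.22 ± 0.09, adjusted p = 0.569). Ugt1a1 was at -0.34 and -0.53 with prolactin there against 0.77 and -0.07 in controls (-0.79 ± 0.47, adjusted p = 0.729). For the difference between lines, Gsta3 (0.22 ± 0.11), Sult4a1 (0.31 ± 0.11) and Ugt2b37 (-1.25 ± 0.56) came nearest in their families, with adjusted p values of 0.514, 0.37 and 0.476.

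Genes that serve the conjugation reactions were counted by 5 lists with actinomycin D, beside all-gene shares of 27.9% higher and 23% lower in Hepa 1-6 and 28% higher and 25.5% lower in AML12. Of 16 measured genes for cosubstrate supply and glutathione metabolism, 6 rose and 8 fell in Hepa 1-6 (37.5% and 50%), and 4 rose and 4 fell in AML12 (25% and 25%, near the all-gene shares). Papss2, which makes the sulfate donor PAPS, rose by 1.15 in Hepa 1-6 and 2.40 in AML12. Ugp2, which makes the precursor of UDP-glucuronic acid, was at 0.87 and 0.91 with actinomycin D in Hepa 1-6, against 1.29 and 1.43 in controls (fell by 0.47), and at 1.35 and 1.28 in AML12, against 0.16 and 0.10 in controls (rose by 1.19). Gclc and Gclm, the subunits of the limiting enzyme of glutathione synthesis, fell in both lines, with changes of -0.46 in Hepa 1-6 and -1.16 in AML12 for Gclc, and -1.26 in Hepa 1-6 and -0.41 in AML12 for Gclm. The AML12 fall of Gclm was lost without AML12 control 1 (-0.36) or actinomycin D 1 (-0.27). Gclc was also far lower in Hepa 1-6 controls than in AML12 controls, with a difference of -4.47.

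Of 20 other conjugation enzymes, 10 rose and 1 fell in Hepa 1-6 (50% and 5%), and 6 rose and 2 fell in AML12 (30% and 10%). Mgst1, a membrane-bound glutathione transferase outside the 6 classes, rose by 0.69 in Hepa 1-6 and 0.81 in AML12. Nat2, an arylamine acetyltransferase, fell by 1.19 in Hepa 1-6 and fell by 1.05 in AML12. The transporter list was drawn up for conjugate export, but not all its genes are established conjugate exporters. Of its 12 measured genes, 5 rose and 0 fell in Hepa 1-6 (41.7% rose), and 7 rose and 0 fell in AML12 (58.3% rose). Abcc3 was up by 0.40 in Hepa 1-6 and 1.49 in AML12. Of 20 targets of NRF2, the regulator that induces many GST genes, 5 rose and 6 fell in Hepa 1-6 (25% and 30%, near the all-gene shares), and 4 rose and 9 fell in AML12 (20% and 45%). Changes in the NRF2 list ran from -1.26 to 1.40 in Hepa 1-6 and from -3.24 to 0.85 in AML12. Osgin1 fell in both, with changes of -0.43 in Hepa 1-6 and -3.24 in AML12. The Hepa 1-6 fall of Osgin1 was lost without Hepa 1-6 control 1 (-0.33). Hmox1 and Slc7a11 of this list went the other way. With actinomycin D in Hepa 1-6, Hmox1 was at -1.06 and -1.04, against -2.35 and -2.39 in controls. Slc7a11 was at 3.20 and 3.24 there, against 1.85 and 1.79 in controls. In AML12, Hmox1 was at -1.31 and -1.51, against -2.01 and -1.92, and Slc7a11 at -0.04 and -0.27, against -0.87 and -0.69. The NRF2 and cosubstrate lists share genes, Gclc and Gclm among them. Of 16 receptors and regulators, 4 rose and 6 fell in Hepa 1-6 (25% and 37.5%), and 3 rose and 6 fell in AML12 (18.8% and 37.5%). Their changes ran from -2.35 to 1.26 in Hepa 1-6 and from -3.31 to 1.56 in AML12. Foxa2, a hepatocyte transcription factor, fell by 2.35 in Hepa 1-6 and fell by 3.31 in AML12. Prolactin changed 0 genes of these 5 lists past the threshold in either line, where 0.0363% of all genes passed in Hepa 1-6 and 1.27% in AML12.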

How the data were processed

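RNA of 12 samples was hybridised to two-colour Agilent mouse arrays. The authors deposited normalized log10 ratios (sample over reference). Per the submitters' processing notes the software was Agilent Feature Extraction, its version not given in the sources used here. For the log base, none is stated, and it was taken as 10, the software's usual base. Exact zeros (12.7% of values) were treated as missing ratios. No background or saturation marks were used, and depth does not apply: the number of arrays limits the precision. P-values measure the spread between 2 arrays a group.

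Ratios were converted to log2, and features with 1 gene symbol and a ratio on all arrays were averaged per gene. One limma 3.58.1 model (lmFit, contrasts.fit and eBayes, R 4.3.3, two-sided) with a mean per group was fitted over 16549 genes, with 6 residual degrees of freedom and Benjamini-Hochberg adjustment. The fit was tested on simulated data. Of the 40 members, 31 had 1 feature and 9 several. Promoters came from RefSeq (GRCm38.p6) and were aligned with Biopython 1.88, and figures were drawn with matplotlib 3.10.9. Probe sequences were not used here.

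Per-array values are given, per comparison and family, for up to 4 rises and 4 falls past the threshold, or the member with the largest moderated t. For each other gene list up to 3 each way were eligible. The members, lists and tests were chosen with earlier results of these data known. Alternatives were other scaling, treatment of zeros, feature choice, filters, a replicate block, fits on the compared arrays alone, and leaving out each array.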

Additional observations from a re-analysis of the deposited data

Results flagged for a closer look

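The actinomycin D response differed between the lines by a test of the difference itself for 13 of the 40 members. This is near the share of all genes called by that test, 30%. Differences are Hepa 1-6 minus AML12 on the log2 scale. The values were -2.44 for Ugt2b5, -1.11 for Gstt3, -0.94 for Gsta4, -0.82 for Gstm5, -0.52 for Gstt2, -0.37 for Gstp1, -0.37 for Sult4a1, 0.47 for Sult2a8, 0.51 for Gstt1, 0.60 for Sult1c2, 0.62 for Sult2b1, 0.68 for Gsto1 and 1.08 for Sult6b1. Only Ugt2b5 among them passed in opposite directions in the lines.

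Of the named genes outside the families, Hmox1 and Slc7a11 left aside, 7 also differed between the lines in this response, where 30% of all genes did. These genes were named from those with large changes past the threshold, so the count does not describe their lists. The values were -1.66 for Ugp2, -1.25 for Papss2, -1.09 for Abcc3, -0.85 for Gclm, 0.69 for Gclc, 0.96 for Foxa2 and 2.81 for Osgin1.

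Some features were left out of the tests because they lacked a ratio on at least 1 array. Some of them gave values above those of the controls in both arrays, which were not tested. These were picked for that separation, which was common. Treated and control arrays did not overlap, in either direction, for 76% of all genes in Hepa 1-6 and 77.1% in AML12 with actinomycin D. With prolactin the shares were 43.2% in Hepa 1-6 and 48.8% in AML12. Sult1d1, which sulfates catecholamines in mice, was at 9.20 and 9.33 with actinomycin D in AML12, against 8.37 and 8.27 in controls, a mean change of 0.95. Ugt1a9 was at 6.11 and 5.45 with actinomycin D in AML12, against 4.45 and 3.72 in controls, a change of 1.69. Further features gave 2.32 for Gstt4 with actinomycin D in Hepa 1-6, and, in AML12 with actinomycin D, 1.34 for Sult1b1, 0.63 for Ugt2b37 and 0.28 for Ugt2a1. Sult3a2 gave 0.61 with prolactin in AML12. Other such features were below both controls: with prolactin, Gstt4 (-0.53) and Ugt2a1 (-0.45) in Hepa 1-6 and Sult2a2 (-0.47) in AML12, also not tested.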

How the results depend on the processing

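There were 21 alternatives, 12 of which left out 1 array. With 1 array left out, the count of members past the threshold ran from 15 to 20 for actinomycin D in Hepa 1-6 (19 as reported), 21 to 27 in AML12 (26), 9 to 14 for the difference between lines (13) and 25 to 29 for the control groups (28). For prolactin it ran from 0 to 1 in AML12, where Ugt2b37 passed at 1.90 without AML12 prolactin 2, and was 0 to 0 in Hepa 1-6 and for the difference between lines. The other 9 alternatives gave 16 to 19, 23 to 26, 11 to 15, 26 to 31 and, for prolactin, 0. Leaving out the lowest 20% of mean ratios tested only 35 of the 40 members and gave 16, 23, 12 and 26. The call was kept under every alternative that tested the member for 14 of 19, 17 of 26, 7 of 13 and 25 of 28 called members, in the same order. The AML12 actinomycin D change of Gsta3 reversed to -0.37 after quantile normalization, and the cause was not tested. Replicate numbers were not shown to pair the samples: the correlation of same-numbered deviations ran from -0.05 to 0.16 over 15 pairs of groups and was over 0.1 in 1. With the replicate block the counts were 19, 26, 11 and 28, and 0 for prolactin. The all-gene median with actinomycin D in AML12 was 0.15 after median centring, against 0.04 as reported. Taking only the brightest-ratio feature of each gene ended the actinomycin D calls of Gsto2 in both lines, of Gstm1 and Gstp1 in AML12 and of Sult4a1 and Ugt1a6b in Hepa 1-6, and of Abcc3 in Hepa 1-6. Quantile normalization ended those of Sult1c2, Gstm3 and Gstm7 in AML12. With exact zeros kept as a ratio of 1, the Hepa 1-6 call of Papss2 was lost. Signal over background was not used here, so genes far below the reference RNA have uncertain folds.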

Other observations

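The Ugt2b37 feature without a ratio on the Hepa 1-6 arrays had ratios on all 6 AML12 arrays, at 6.78 and 6.58 with actinomycin D, 6.25 and 6.05 with prolactin and 6.15 and 5.95 in controls. The Ugt1a9 feature had a ratio on 9 arrays, between 3.72 and 6.11 on the 6 AML12 arrays and between 0.30 and 1.01 on the 3 Hepa 1-6 arrays that gave one. The Sult1d1 feature had a ratio on 10 arrays, between 7.28 and 9.33 in AML12 and between 0.36 and 1.64 on 4 Hepa 1-6 arrays. Both the Ugt1a9 and the Sult1d1 feature were higher on every AML12 array than on any Hepa 1-6 array with a ratio. Sult2a4 had a ratio on 2 arrays for each of its features.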
